A study of Homo sapiens with 12 samples.

Results

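The genes described here are 10 components of the Wnt pathway that were measured in human multiple myeloma cells with and without bone marrow stroma. They are the ligands WNT5A, WNT5B, WNT10A and WNT2B, the secreted inhibitors DKK1, DKK3, FRZB and SFRP1, the secreted enzyme NOTUM and the receptor PTK7. Every probe set whose annotation names 1 of these genes was taken, which gave 29 of the 54675 probe sets on the array, and 0 probe sets named a listed gene together with another. NOTUM, WNT2B and PTK7 (7 probe sets) were chosen by their falls in intensity after coculture in this series, so their values are a description and carry no test. The other 7 genes were tested as part of the fit over the whole table. The whole list was chosen with earlier results of these data known, so their tests and counts are not independent of that choice.

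Wnt proteins are secreted, lipid-modified signals that leave the cell with the carrier protein WLS and bind Frizzled receptors on the same or a neighbouring cell. With the coreceptors LRP5 and LRP6 they stabilise beta-catenin, which acts with TCF and LEF factors on target genes such as AXIN2. Other ligands, WNT5A the best studied, act mainly without beta-catenin, through receptors such as ROR2, RYK and PTK7. In myeloma the pathway is best known for DKK1, an inhibitor that malignant plasma cells can secrete, that blocks Wnt signalling in bone-forming cells and that is linked to bone lesions.

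RNA came from 3 human myeloma lines, MM.1S, MM.1R and INA-6, each stably expressing green fluorescent protein (GFP). MM.1R is the dexamethasone-resistant sister of the sensitive line MM.1S, and INA-6 is a line that depends on interleukin 6. All lines were kept for 24 hours either alone or with HS-5, an unlabelled human bone marrow stromal line, and the GFP-positive cells were then sorted. Each of the 6 groups had 2 Affymetrix U133 Plus 2.0 arrays, technical replicates according to the series text, and the lines are long-established cultures, of which MM.1S and MM.1R derive from the same patient's tumour. The comparison of each line with stroma against the same line alone is the one the series states, and it asks how stromal contact changes the expression profile of the tumour cells.

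Array medians lay between 19.78 and 24.09 in the deposited intensity units. The 8 plasma cell markers fixed for this work, among them SDC1, TNFRSF17 and IRF4, were above the array median on both arrays of all 6 groups. Markers of the other cell type in the coculture moved with it. The summed intensity of 22 stromal genes was 1095 to 1558 on the arrays of cells kept alone, and after coculture it was 13487 to 13641 in MM.1S, 26628 to 26639 in MM.1R and 11982 to 12156 in INA-6. Of the 20 stromal genes tested, 11 rose, while LUM, POSTN, TAGLN and ACTA2 stayed low or were not higher. The summed intensity of 9 cytokine genes known from HS-5, with IL6 and CXCL8 among them, was 105 to 289 alone and 9175 to 21292 after coculture, and 8 of the 9 rose. None of the 22 stromal genes stood at the lowest value, 1, on both arrays of any group. In sorted bulk RNA, fewer cells of a type and less RNA per cell cannot be told apart. RNA quality also moved with the groups: the mean ACTB 3'/5' signal ratio went from 22.4 to 5.10 in MM.1S and from 31.4 to 5.21 in MM.1R, but from 5.51 to 32.0 in INA-6. Duplicate arrays correlated least across probe sets in INA-6 kept alone (Pearson r = 0.821, against 0.929 to 0.982 in the other groups). The upper quartile of intensity was 73.6 and 69.9 on those arrays and 99.2 to 129 on all others. The mean signal of the BioB control was 2905 alone and 639 with stroma in INA-6. It was 1713 and 228 in MM.1S, and 406 and 266 in MM.1R. The part of these array-wide differences in the comparisons below was not tested.

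In all 3 lines WNT5A and the DKK3 probe set 214247_s_at were higher after coculture, and these were the only tested probe sets of the listed genes that passed the test common to the lines. Differences were taken on log2(intensity + 5) and tested with limma, with Benjamini-Hochberg adjustment over all 35664 probe sets tested and a threshold of 0.05. Of the 29 listed probe sets, 23 were above the median of their own array on at least 2 of the 12 arrays and so entered the fit. The 6 left out had values from 1 to 28.4. A probe set can enter through the group in which it is high, so counts over those that entered are descriptive. Of the 18 tested probe sets of the 7 genes not chosen for a fall, 3 rose in the fit that treats the 3 lines as replicates, against 1.11% of all probe sets that rose and 0.0168% that fell. That fit rests on 6 averaged values. Without INA-6 the count was 9, in a fit of only MM.1S and MM.1R, which come from the same patient's tumour. The share of all probe sets that passed in that fit is not given here. The count of 9 therefore cannot be set against the shares above.

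Within single lines the duplicate arrays were the replicates. Nothing says that they came from separate cultures, so those p-values measure only the spread between arrays. In MM.1S, 6 of the 18 probe sets rose and 2 fell, against 20.4% and 8.98% of all probe sets. In MM.1R, 9 rose and 1 fell, against 10.5% and 3.48%. In INA-6, 4 rose and 1 fell, against 35.2% and 12.5%, so the listed probe sets did not exceed the shares of the whole table there. The median difference of the 18 was 0.21 in MM.1S, 1.03 in MM.1R and -0.05 in INA-6, beside 0.05, 0.02 and 0.40 for all probe sets tested. Quantile normalization of the arrays moved these medians over all probe sets to -0.06, -0.11 and 0.16, and the median common to the lines from 0.19 to -0.0046. The effect differed between the lines for 7 of the 18 (F-test of the difference), where 32.8% of all probe sets differed.

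**Figure D1:**
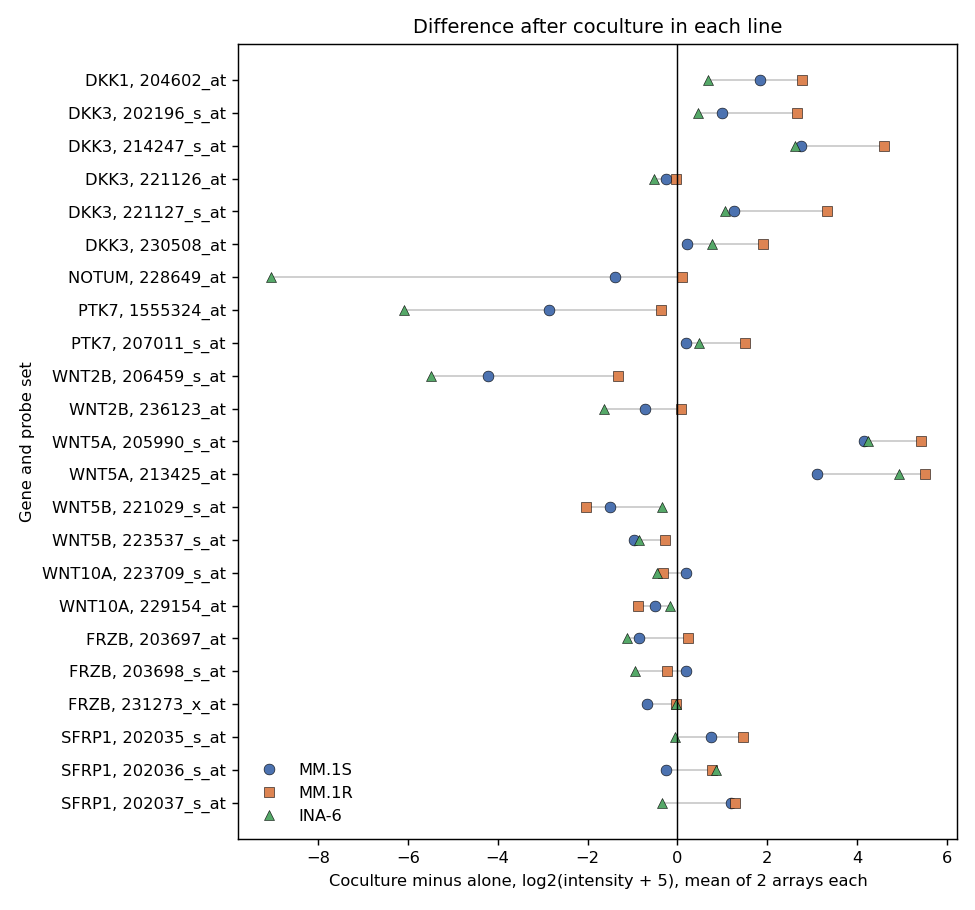
Difference after coculture, on log2(intensity + 5), for the 23 tested probe sets of the 10 genes (vertical axis), with 1 marker per line, each the mean of 2 coculture arrays minus the mean of 2 arrays of cells alone. WNT5A lies to the right in all 3 lines, NOTUM reaches -9.04 in INA-6 only, and the 2 probe sets of PTK7 lie on opposite sides of 0.

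WNT5A, the ligand of the beta-catenin-independent branch, showed the largest common rises among the tested members on both of its probe sets. On 205990_s_at the arrays of MM.1S read 34.6 and 67.2 alone and 971 and 921 with stroma. MM.1R read 42.4 and 43.2 alone and 2145 and 1960 with stroma. INA-6 read 52.8 and 19.8 alone and 657 and 769 with stroma. Every coculture array was thus far above every array of cells alone, and the groups did not overlap in any line; over the whole table such a separation upwards was seen for 39.6% of probe sets in MM.1S, 35.8% in MM.1R and 46.4% in INA-6. The common difference was 4.61 ± 0.43 (log2, SE; limma adjusted p = 0.0103), a 24.4-fold rise on the scale of intensity plus 5. It passed the threshold under all 22 alternatives tried.

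The second WNT5A probe set, 213425_at, gave the same direction at its own level. It read 24.4 and 32.2 alone and 278 and 281 with stroma in MM.1S. In MM.1R it read 12.6 and 12.6 alone and 766 and 826 with stroma, and in INA-6 5.92 and 2.69 alone and 287 and 261 with stroma. The common difference was 4.51 ± 0.54 (limma adjusted p = 0.0213, and 0.0523 with no filter on low values). The size of this rise differed between the lines (F-test adjusted p = 0.00177), being 3.11 in MM.1S, 5.51 in MM.1R and 4.92 in INA-6, and it was larger in MM.1R than in MM.1S by 2.40 ± 0.31 (adjusted p = 0.0376; 0.398% of all probe sets differed in this contrast, 0.0701% with the larger value in MM.1R and 0.328% with the smaller). The other probe set rose by 4.15, 5.43 and 4.24 in the same order, and its difference between MM.1R and MM.1S did not pass (1.27 ± 0.58, adjusted p = 0.372). In INA-6 the rise on 205990_s_at was 4.85 without the first array of cells alone and 3.63 without the second.

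After coculture WNT5A stood highest in MM.1R, and so did the stromal sums. The mean WNT5A intensity in MM.1R was 2.17 times that of MM.1S and 2.88 times that of INA-6 on 205990_s_at, and 2.85 and 2.91 times on 213425_at. The stromal marker sum was 1.96 and 2.21 times as high in the same order, and the HS-5 cytokine sum 1.82 and 2.27 times. Levels of MM.1S and INA-6 were close to each other on 213425_at, with a ratio of 1.02. The part of the stromal RNA in the WNT5A values was not tested.

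Because WNT5A and DKK1 were high in the same groups, the 250 bases before their annotated starts are shown, from RefSeq windows on GRCh38.p14. Of the 10 genes, 7 had a window that was used, 11 windows in all. Each was searched on both strands for an AP-1 motif (TGANTCA, in 6.57% of all 35116 windows of this length), a STAT motif (TTCNNNGAA, 6.57%), the NF-kB motif (0.527%) and a TCF/LEF motif (TCAAAG, 11.2%). Capitals mark the matches. WNT5A has 2 annotated starts on the minus strand of chromosome 3, and neither window held a match to these letters, while the DKK1 window on the plus strand of chromosome 10 held the TCF/LEF letters at 149 and, on the other strand, at 95 bases before the start.
WNT5A chr3:55481399-55481648: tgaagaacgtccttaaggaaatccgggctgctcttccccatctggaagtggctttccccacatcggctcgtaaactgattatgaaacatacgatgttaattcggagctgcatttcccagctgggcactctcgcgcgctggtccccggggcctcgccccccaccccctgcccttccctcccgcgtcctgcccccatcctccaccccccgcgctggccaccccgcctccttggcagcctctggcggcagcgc
WNT5A chr3:55487307-55487556: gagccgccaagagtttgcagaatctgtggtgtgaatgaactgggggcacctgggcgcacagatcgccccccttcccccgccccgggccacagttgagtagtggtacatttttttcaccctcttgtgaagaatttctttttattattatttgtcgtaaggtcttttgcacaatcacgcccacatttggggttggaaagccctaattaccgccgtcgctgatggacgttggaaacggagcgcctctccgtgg
DKK1 chr10:52314031-52314280: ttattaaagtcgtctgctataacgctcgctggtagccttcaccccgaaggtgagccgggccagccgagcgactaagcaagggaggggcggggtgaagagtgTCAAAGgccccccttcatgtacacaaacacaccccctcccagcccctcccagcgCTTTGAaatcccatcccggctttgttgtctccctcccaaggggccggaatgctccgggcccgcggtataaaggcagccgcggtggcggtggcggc

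**Figure D2:**
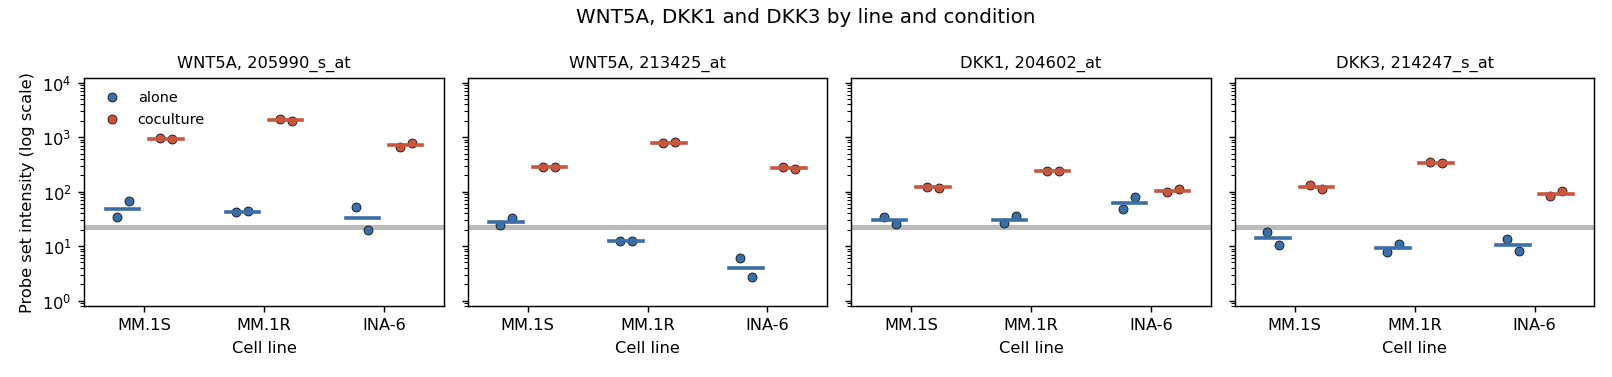
Intensity on a log scale of both WNT5A probe sets, DKK1 and the DKK3 probe set 214247_s_at, by line, with 1 point per array, a bar at the geometric mean of the 2 arrays and a gray band for the range of array medians. On all 4 probe sets the coculture arrays of MM.1R are the highest, and for DKK1 the INA-6 arrays lie closest together, from 48.2 to 110.

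WNT5B, a ligand closely related to WNT5A, went the other way in the MM.1 lines. On 221029_s_at it read 253 and 314 alone and 88.7 and 105 with stroma in MM.1S. In MM.1R it read 549 and 396 alone and 132 and 92.8 with stroma. INA-6 had 6.95 and 8.83 alone and 4.48 and 5.91 with stroma, below the array medians throughout. WNT5B fell by 1.5 ± 0.26 in MM.1S (limma adjusted p = 0.00299) and by 2.03 ± 0.26 in MM.1R (adjusted p = 0.00161), while the difference in INA-6 was -0.34 ± 0.26 (adjusted p = 0.311). Coculture arrays lay below those of cells alone in both MM.1 lines, as they did for 31% and 26.9% of all probe sets. The common difference of -1.29 ± 0.46 did not pass with INA-6 (adjusted p = 0.207) and passed without it (-1.77, adjusted p = 0.00222). The fit without INA-6 holds only the sister lines MM.1S and MM.1R, from the same patient's tumour. Its p-value therefore does not measure the spread between independent lines. The effect differed between the lines (F-test adjusted p = 0.019), but this call was lost without the first MM.1R array alone (0.051), the second MM.1R array with stroma (0.0508) or either INA-6 array with stroma (0.0562 and 0.0854). The probe set 223537_s_at, with values from 8.64 to 44.5, passed in no line, and 230299_s_at was not tested.

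WNT10A, a ligand of the beta-catenin branch, separated the lines rather than the culture conditions. On 223709_s_at the MM.1S arrays read 565 and 577 alone and 662 and 646 with stroma. The MM.1R arrays read 555 and 540 alone and 460 and 417 with stroma. INA-6 read 10.5 and 32.8 alone and 10.5 and 15.0 with stroma. Cells kept alone differed by -4.54 ± 0.32 (INA-6 minus the mean of the MM.1 lines, limma adjusted p = 9.68e-06), and after coculture by -4.94 ± 0.32 (adjusted p = 3.09e-05). The second probe set, 229154_at, read 69.0 to 187 in the MM.1 lines and 1 to 2.44 in INA-6, with a difference of -4.51 ± 0.26 alone (adjusted p = 3.82e-06). The INA-6 values lie at the floor of the scale, so the size of that difference is set by the pseudocount, running from -5.82 with a pseudocount of 1 to -3.20 with 16. Coculture itself passed on neither probe set in any line. The differences ran from -0.88 to 0.19, and in MM.1R the fall of 0.88 on 229154_at had an adjusted p of 0.0993.

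The WNT10A window before its start, on the plus strand of chromosome 2, held 1 match to the NF-kB letters, at 116 bases before the start. It is shown beside the window of FRZB, on the minus strand of the same chromosome, because these genes differed between INA-6 and the MM.1 lines in opposite directions. The FRZB window held none of the 4 motifs.
WNT10A chr2:218880602-218880851: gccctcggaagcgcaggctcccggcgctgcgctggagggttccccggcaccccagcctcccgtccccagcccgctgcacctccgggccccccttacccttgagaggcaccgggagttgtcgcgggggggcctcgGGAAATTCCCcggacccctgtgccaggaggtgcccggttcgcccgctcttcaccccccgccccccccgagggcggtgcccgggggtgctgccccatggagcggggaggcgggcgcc
FRZB chr2:182866638-182866887: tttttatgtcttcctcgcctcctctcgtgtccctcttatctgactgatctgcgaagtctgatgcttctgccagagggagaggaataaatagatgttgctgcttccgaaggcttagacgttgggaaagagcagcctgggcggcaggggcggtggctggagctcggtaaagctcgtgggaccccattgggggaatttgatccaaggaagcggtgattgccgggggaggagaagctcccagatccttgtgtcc

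FRZB, a secreted Frizzled-related protein that binds Wnt ligands, was high in INA-6 and low in the MM.1 lines. On 203697_at INA-6 read 1947 and 2179 alone and 961 and 926 with stroma. MM.1S read 44.4 and 38.4 alone and 21.9 and 19.3 with stroma, and MM.1R read 16.5 and 22.9 alone and 25.7 and 21.7 with stroma. Alone, INA-6 exceeded the mean of the MM.1 lines by 5.94 ± 0.17 (limma adjusted p = 3.74e-07), and on 203698_s_at by 5.77 ± 0.33 (adjusted p = 3.72e-06). With stroma FRZB fell in INA-6 by 1.12 ± 0.20 on 203697_at (adjusted p = 0.00224), where the groups did not overlap, as for 23.4% of all probe sets in that direction. On 203698_s_at the arrays read 2111 and 1053 alone and 795 and 744 with stroma, a difference of -0.95 ± 0.38 that did not pass (adjusted p = 0.0723).

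In MM.1S FRZB also fell on 203697_at, by 0.85 ± 0.20 (adjusted p = 0.0134), from levels of at most 44.4. This call was lost without the first MM.1S array alone (adjusted p = 0.0741) or without either MM.1S coculture array (0.0591 and 0.101). The effect differed between the lines (F-test adjusted p = 0.015), and that call was lost without the first MM.1R array alone (0.0672), the first MM.1R array with stroma (0.0666) or the second INA-6 array with stroma (0.0532). MM.1R alone was below MM.1S alone by 0.92 on the log2 scale (-0.92 ± 0.20, adjusted p = 0.0331), a call that ended in 10 of the 12 fits that left out 1 array. It and 213425_at of WNT5A (-0.91 ± 0.22, adjusted p = 0.0472) were the 2 of the 18 that were lower in MM.1R alone, the WNT5A call being lost under 16 of 20 alternatives, where 6.95% of all probe sets differed, 1.14% lower and 5.81% higher. The probe set 231273_x_at varied up to 8.35 times between duplicates, with no call, and 244419_at was not tested.

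**Figure D3:**
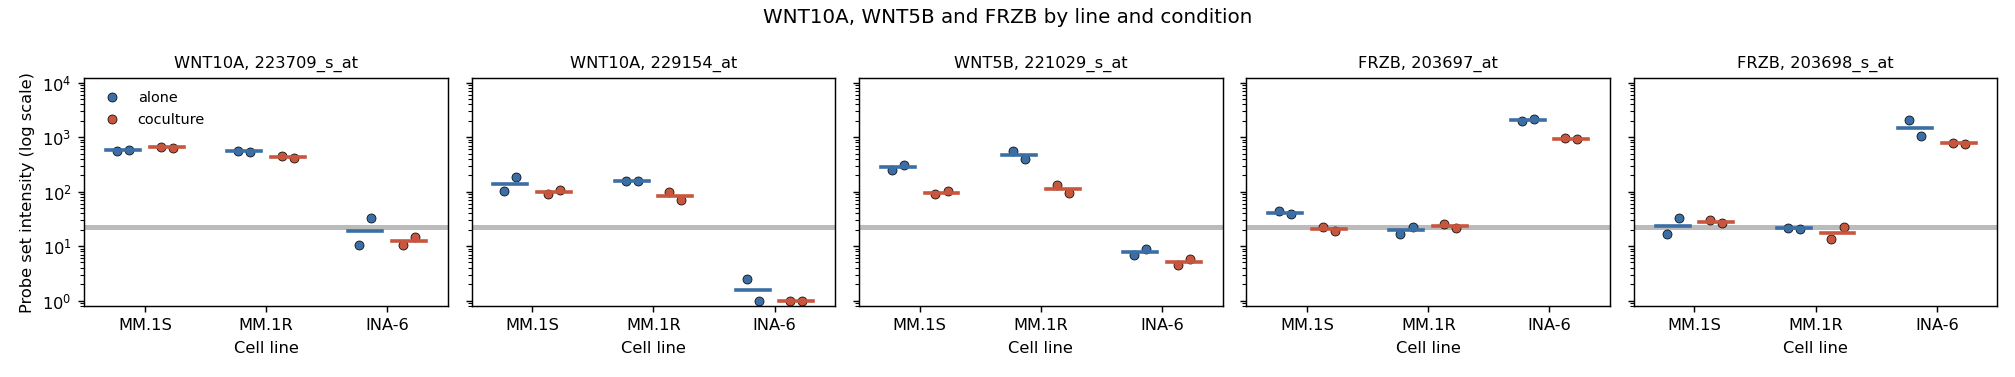
Intensity on a log scale of the WNT10A, WNT5B and FRZB probe sets by line, with 1 point per array, a bar at the geometric mean of 2 arrays and a gray band for the range of array medians. WNT10A and WNT5B are near or below the band in INA-6 and above it in the MM.1 lines, and both FRZB probe sets show the opposite.

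Among the cells kept alone, 8 of the 18 probe sets differed between INA-6 and the MM.1 lines, 4 higher and 4 lower in INA-6. That is near the share of the whole table, where 51.8% differed, 19% higher and 32.8% lower. On 221029_s_at WNT5B was lower in INA-6 by 4.84 on the log2 scale (-4.84 ± 0.22, limma adjusted p = 1.42e-06). The other tested WNT5B probe set, 223537_s_at, did not pass. Its means alone were 33.2 in MM.1S, 33.9 in MM.1R and 26.6 in INA-6. After coculture 2 of the 18 were higher and 6 lower in INA-6, where 19.6% of all probe sets differed, 8.23% higher and 11.4% lower. The latter 6 were both WNT10A probe sets, 221029_s_at of WNT5B, 2 probe sets of DKK3 and 213425_at of WNT5A. Between MM.1R and MM.1S after coculture, 0 of the 35664 probe sets passed in limma, with 1290 at an unadjusted p under 0.05.

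DKK1, the secreted inhibitor that binds LRP5 and LRP6, rose in both MM.1 lines. Its single probe set, 204602_at, read 34.7 and 26.0 alone and 122 and 119 with stroma in MM.1S. In MM.1R it read 26.7 and 35 alone and 242 and 237 with stroma. In INA-6 it read 48.2 and 81.3 alone and 97.9 and 110 with stroma. Coculture arrays were above those of cells alone in each line, with the narrowest gap in INA-6. The same held for 39.6% of all probe sets in MM.1S, 35.8% in MM.1R and 46.4% in INA-6. DKK1 rose by 1.84 ± 0.26 in MM.1S (limma adjusted p = 0.00127) and by 2.78 ± 0.26 in MM.1R (adjusted p = 0.000396), and both calls held under all 21 alternatives tried. The difference in INA-6 was 0.68 ± 0.26 (adjusted p = 0.0632).

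The DKK1 effect differed between the lines (F-test adjusted p = 0.00918), and in INA-6 it was smaller than the mean of the MM.1 lines by 1.62 on the log2 scale (-1.62 ± 0.32, adjusted p = 0.00538; 36.9% of all probe sets differed in this contrast, 12.8% lower and 24.1% higher). Alone, INA-6 was above the MM.1 lines by 0.94 ± 0.23 (adjusted p = 0.00882). The common difference, 1.77 ± 0.49, did not pass (adjusted p = 0.142), and without INA-6 it was 2.31 (adjusted p = 0.000523). As for WNT5B, the fit without INA-6 holds only the sister lines, so its p-value does not measure the spread between independent lines. After coculture MM.1R had 1.99 times the mean intensity of MM.1S and 2.30 times that of INA-6, close to the ratios of the stromal marker sum given above (1.96 and 2.21). The part of the stromal RNA in the DKK1 values was not tested either.

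DKK3, a divergent member of the Dickkopf family, had 6 probe sets, which did not behave alike. On 214247_s_at MM.1S read 18.2 and 10.6 alone and 135 and 114 with stroma. MM.1R read 7.84 and 10.9 alone and 351.3 and 333.9 with stroma, and INA-6 read 13.5 and 8.25 alone and 82.5 and 101 with stroma. All arrays of cells alone were below the array medians and all coculture arrays above them. The common difference was 3.33 ± 0.51 (limma adjusted p = 0.0415), and DKK3 rose by 2.76, 4.61 and 2.62 in MM.1S, MM.1R and INA-6 (adjusted p = 0.000211, 3.01e-05 and 0.000131). The common call was lost under 5 of 22 alternatives, with an adjusted p of 0.0589 without the first INA-6 array alone and 0.0604 without the second. The rise differed between the lines (F-test adjusted p = 0.00772). MM.1R with stroma had 2.76 times the mean intensity of MM.1S and 3.73 times that of INA-6. The part of the stromal RNA in these values was not tested.

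The other DKK3 probe sets rose mainly in MM.1R. There 202196_s_at went from 3.52 and 1.96 to 55 and 35, 221127_s_at from 3.16 and 1.76 to 78.8 and 61.3, and 230508_at from 6.03 and 5.95 to 47.3 and 27.7. The differences were 2.67 ± 0.30, 3.33 ± 0.45 and 1.91 ± 0.38 (limma adjusted p = 0.000934, 0.00215 and 0.0128). The last of these was lost without either MM.1R array alone (adjusted p = 0.0718 and 0.0807) or without the first MM.1R coculture array (0.104). In MM.1S 202196_s_at rose by 1.0 ± 0.30 (adjusted p = 0.0383), but this call ended in 8 of the 12 fits that left out 1 array. In INA-6 none of these 3 passed, with differences of 0.45, 1.06 and 0.77. The probe set 221126_at stayed between 6.88 and 36.9 with overlapping groups in every line, and 207875_at was not tested. Here too, the part of the stromal RNA in the rises was not tested.

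SFRP1, another secreted Frizzled-related inhibitor, was low on its 4 probe sets, with a highest value of 57.3. On 202037_s_at MM.1R read 22.0 and 15.8 alone and 57.3 and 49.0 with stroma, and MM.1S read 12.6 and 8.15 alone and 24.4 and 36.4 with stroma. SFRP1 rose on this probe set by 1.20 ± 0.36 in MM.1S (limma adjusted p = 0.0376) and by 1.29 ± 0.36 in MM.1R (adjusted p = 0.0496). On 202035_s_at it rose in MM.1R by 1.47 ± 0.32 (adjusted p = 0.0192), and on 202036_s_at in INA-6 by 0.86 ± 0.29 (adjusted p = 0.0396), from 15.2 and 12.8 to 31.0 and 28.0. None of these 4 calls held when each array was left out in turn. The calls on 202037_s_at ended in 8 of the 12 such fits in MM.1S and in 10 in MM.1R, the call on 202035_s_at without any 1 of the 4 MM.1R arrays, and the call on 202036_s_at in 7 fits. How much of the SFRP1 signal with stroma was stromal RNA was not tested.

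NOTUM, PTK7 and WNT2B were listed for their falls, so the following values describe what chose them. NOTUM, a secreted enzyme that removes the lipid from Wnt proteins and so silences them, had 1 probe set, 228649_at. In INA-6 it read 4016 and 6356 alone and 6.85 and 2.76 with stroma. MM.1S read 17.7 and 7.52 alone and 1.48 and 1.36 with stroma, and MM.1R read 1 to 1.94 in both conditions. NOTUM was thus high on the INA-6 arrays of cells alone and below the array median on the other 10. Values far below the array median have no exact fold, and the log2 differences depend on the pseudocount (in INA-6 -9.86 with 1 and -7.94 with 16). With 5 they were -9.04 in INA-6, -1.39 in MM.1S and 0.10 in MM.1R, so the mean over the lines, -3.44, was -0.65 without INA-6. With no other NOTUM probe set on the array, this pattern rests on 1 probe set, on the line whose duplicates alone agreed least.

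WNT2B, a ligand of the beta-catenin branch, had 4 probe sets, of which 206459_s_at carried the fall. In INA-6 it read 1531 and 3541 alone and 47.8 and 47.0 with stroma. MM.1S read 229 and 196 alone and 14.1 and 2.24 with stroma, and MM.1R read 36.3 and 66.8 alone and 7.76 and 32.6 with stroma. The arrays of cells alone were higher in each line, by log2 differences of -5.48, -4.21 and -1.31 (coculture minus alone). Without the second MM.1R coculture array the last value was -2.09, and without the first it was -0.54. On 236123_at INA-6 read 30.5 and 98.3 alone and 15.1 and 14.1 with stroma, and the differences were -1.63 in INA-6, -0.71 in MM.1S and 0.09 in MM.1R. The other two, 206458_s_at and 238512_at, were not tested and reached 28.4 at most. In INA-6 their differences were -0.54 and 0.04.

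PTK7, a receptor-like protein without kinase activity that takes part in planar cell polarity, had 2 probe sets of opposite sign. On 1555324_at INA-6 read 4754 and 2125 alone and 35.4 and 49.7 with stroma, a ratio of means of 80.9. MM.1S read 380 and 68.9 alone and 25.9 and 12.5 with stroma, and MM.1R read 13.4 and 60.8 alone and 17.0 and 28.6 with stroma. The differences were -6.08, -2.86 and -0.36. The first MM.1S array alone was 5.52 times the second, and the MM.1S difference was -1.67 without the first and -4.05 without the second. In MM.1R it was -1.28 without the first array alone and 0.56 without the second.

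The other PTK7 probe set, 207011_s_at, did not fall in any line. It read 18.5 and 19.2 alone and 26.3 and 30.1 with stroma in INA-6. In MM.1R it read 21.2 and 16.2 alone and 67.8 and 55.4 with stroma, and in MM.1S 15.9 and 31.2 alone and 19.9 and 34.1 with stroma. Its differences were 0.48, 1.49 and 0.18, and the INA-6 and MM.1R groups did not overlap, as for 46.4% and 35.8% of all probe sets in this direction. The fall for which PTK7 was listed was therefore seen on 1 of its 2 probe sets. What each probe set detects of the PTK7 transcripts was not analysed here.

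**Figure D4:**
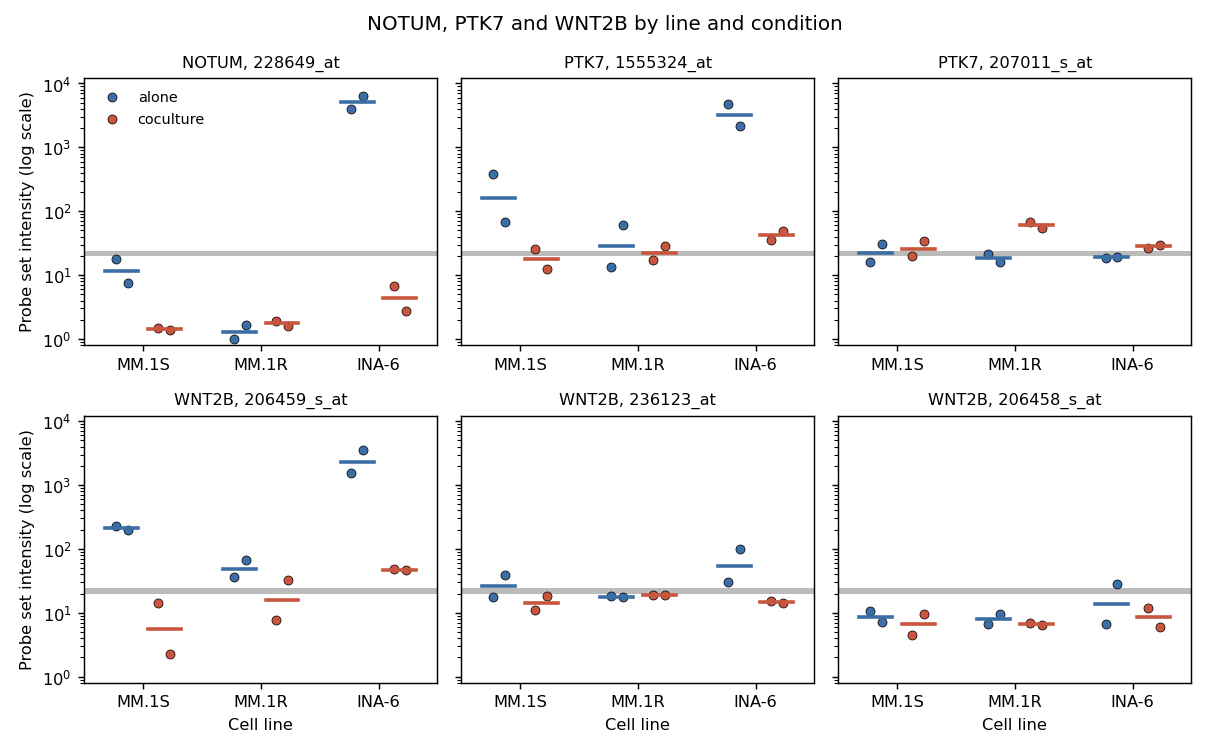
Intensity on a log scale of NOTUM, both PTK7 probe sets and 3 of the 4 WNT2B probe sets by line, with 1 point per array, a bar at the geometric mean of the 2 arrays and a gray band for the range of array medians. NOTUM, 1555324_at of PTK7 and 206459_s_at of WNT2B are above 1000 on both INA-6 arrays of cells alone, while 207011_s_at of PTK7 stays between 15.9 and 67.8.

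By a fixed rule the 3 genes most alike in pattern were listed for each gene, as the highest Pearson r of log2 values over the 12 arrays, which share lines and conditions. For WNT5A (205990_s_at) these were EPB41L3, CEBPD and FST, with r of 0.998, 0.998 and 0.996. For DKK3 (214247_s_at) they were IL13RA2, IL11 and COL1A1, the collagen chain that heads the stromal list, with r of 0.996, 0.996 and 0.995. For DKK1 they were PRSS23, ASPH and SNX33, with r of 0.991, 0.987 and 0.985. For NOTUM they were UGGT1, NSMCE2 and LINC02199 (0.992, 0.992 and 0.991), and UGGT1 read 1751 and 1996 in INA-6 alone against 161 to 268 on the other arrays. For PTK7 (1555324_at) they were NADSYN1, OFCC1 and CDH3, whose arrays of MM.1S alone were also unequal, with 519 and 258 for CDH3.

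The rest of the Wnt pathway was followed through 86 further genes in 9 groups, of which 81 had a probe set and 60 had one that was tested, 118 probe sets in all. In the fit common to the lines 1 of the 118 passed, against 1.13% of all probe sets, and their median difference was 0.17 beside 0.19 for all tested. The probe set that passed was 212762_s_at of TCF7L2, a TCF factor that works with beta-catenin, which rose by 2.72 ± 0.43 (limma adjusted p = 0.0443). A second TCF7L2 probe set, 212761_at, had a difference of 2.53 (adjusted p = 0.0654). The other TCF7L2 probe sets tested, 216037_x_at, 216035_x_at and 212759_s_at, did not pass either. Their differences were 1.08, 0.86 and 0.10 (adjusted p = 0.205, 0.277 and 0.931). On 212762_s_at the arrays of cells alone read 1.67 to 9.43 and those with stroma 45.0 to 91.4, so the groups did not overlap in any line. Such a separation upwards was seen for 39.6% of all probe sets in MM.1S, 35.8% in MM.1R and 46.4% in INA-6. With stroma TCF7L2 read 91.4 and 70.9 in MM.1R, 46.0 and 45.0 in MM.1S and 54.3 and 50.4 in INA-6. It was thus highest in MM.1R, as were the stromal sums. How much of the TCF7L2 signal was stromal RNA was not tested. CSNK1A1, a kinase that primes beta-catenin for degradation, had 1.90 on 208867_s_at (adjusted p = 0.0928). The 3 largest falls did not pass. CELSR1, a cadherin of planar polarity, had -2.31 on 204539_s_at (adjusted p = 0.124). PRICKLE1, another planar polarity protein, had -1.71 on 232811_x_at (adjusted p = 0.277), and 0.25 on 230708_at and -0.27 on 226065_at. AXIN2, a feedback inhibitor and common readout of beta-catenin signalling, had -1.55 on 224176_s_at (adjusted p = 0.211). The other AXIN2 probe set, 222696_at, had a common difference of 0.18 (adjusted p = 0.822), with values of 54.6 to 65.4 alone and 80.8 to 102 with stroma in the MM.1 lines, and 93.5 to 103 alone and 71.3 to 75.8 with stroma in INA-6.

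Within the lines, genes of the pathway changed in both directions. Of the 118 probe sets 14 rose and 6 fell in MM.1S, against the 20.4% and 8.98% of all probe sets, 9 rose and 3 fell in MM.1R, against 10.5% and 3.48%, and 35 rose and 15 fell in INA-6, against 35.2% and 12.5%. The counts were thus below the shares of the whole table in the MM.1 lines, and for falls in INA-6 near it. By gene, counting a gene once if any of its probe sets passed, 9 rose and 5 fell in MM.1S, 1 of them both ways. In MM.1R 6 rose and 3 fell, and in INA-6 22 rose and 14 fell, 2 of them both ways. A gene with many probe sets is more easily counted by this rule. No share by gene was computed over the whole table, so these counts cannot be set against the shares of probe sets. TCF7L2 rose on 212762_s_at in each line, by 2.26 ± 0.31 in MM.1S, 3.49 ± 0.31 in MM.1R and 2.41 ± 0.31 in INA-6 (limma adjusted p = 0.001, 0.000274 and 0.000409). CSNK1A1 rose on 208867_s_at by 2.52, 1.90 and 1.28 in the same order (adjusted p = 0.00108, 0.00906 and 0.0172). Its 11 tested probe sets did not move alike, and CSNK1A1 is the gene that passed both ways in MM.1S. There 206562_s_at, with a mean intensity of 669, fell by 1.22 on the log2 scale (-1.22, adjusted p = 0.00166) and 208866_at by 1.17 (-1.17, adjusted p = 0.00658), and in INA-6 226920_at had -0.87 (adjusted p = 0.0336). A few further genes were chosen after their values were seen. WLS, which carries Wnt proteins to the cell surface, rose on 221958_s_at by 2.5 ± 0.48 in MM.1S (limma adjusted p = 0.005) and by 2.29 ± 0.48 in MM.1R (adjusted p = 0.0151). On 228949_at it passed in MM.1R only (1.82, adjusted p = 0.017), and 228950_s_at passed in no line. In INA-6 none of the 3 WLS probe sets passed, with a median difference of -0.37. KREMEN1, a receptor that acts with DKK1 and was chosen in the same way, rose on 227250_at in all 3 lines, by 1.53, 1.86 and 1.18 (adjusted p = 0.00631, 0.00525 and 0.013). Its other 2 tested probe sets, 234843_s_at and 235370_at, passed in no line and had common differences of -0.35 and -0.07. For the rises within the lines, too, the part of the stromal RNA was not tested.

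In INA-6 7 of the 15 probe sets of nuclear factors rose, from 5 of 7 genes, and none fell. LEF1, chosen after its value was seen, was among them and rose on 221558_s_at by 1.27 ± 0.20 (limma adjusted p = 0.00122). On 210948_s_at LEF1 fell in MM.1R by 1.54 on the log2 scale (-1.54, adjusted p = 0.00108). In INA-6 neither this probe set nor 221557_s_at passed. Of the 36 probe sets of intracellular genes 17 rose and 2 fell, where CSNK1A1 alone had 11. In the planar polarity group, to which PTK7 is related, 4 of 14 probe sets fell, from 3 of 6 genes. CELSR1 had -4.00 ± 0.43 on 204539_s_at (limma adjusted p = 0.000159) and -1.90 ± 0.49 on 41660_at (adjusted p = 0.013). The INA-6 arrays of cells alone read 434 and 223 on 204539_s_at, and 93.2 and 352 on 41660_at. PRICKLE1 had -4.14 ± 0.98 on 232811_x_at (adjusted p = 0.00865), where the INA-6 arrays of cells alone read 69.35 and 475. The other PRICKLE1 probe sets tested, 230708_at and 226065_at, passed in no line. AXIN2 fell by 3.07 ± 0.89 on 224176_s_at (-3.07, adjusted p = 0.0217), where the INA-6 arrays of cells alone read 110 and 409. On 222696_at AXIN2 had -0.39 (adjusted p = 0.12). The counts of probe sets in these groups stand beside the 35.2% of all probe sets that rose and the 12.5% that fell in INA-6. The counts by gene have no such share beside them. Since 47.7% of all probe sets changed in INA-6, and the ACTB ratio moved there against its direction in the MM.1 lines, the part of RNA quality in these counts was not tested.

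**Figure D5:**
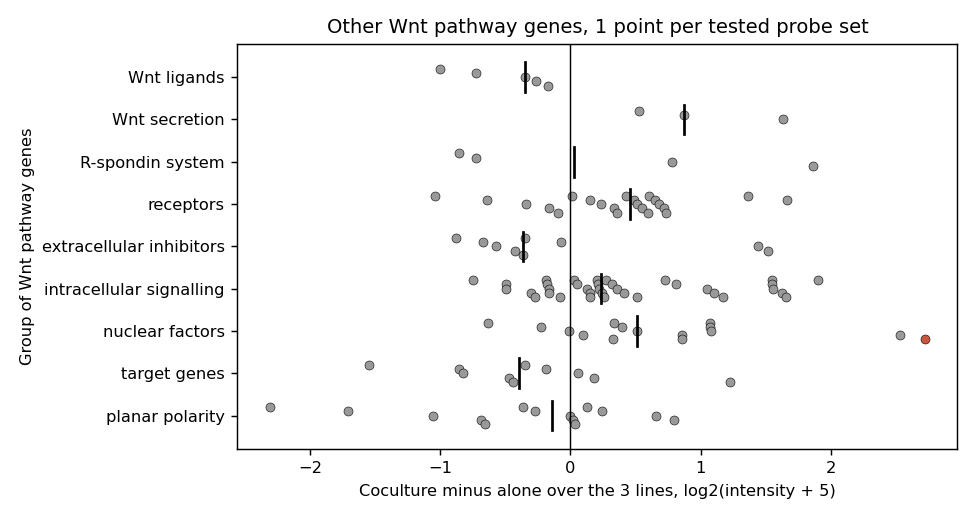
Difference after coculture common to the 3 lines, on log2(intensity + 5), for the 118 tested probe sets of the other Wnt pathway genes by group (vertical axis), with 1 point per probe set, a black bar at each group's median and red for the 1 probe set that passed. Most points lie within 1 unit of 0, and the red point is TCF7L2 at 2.72.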

How the data were processed

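Probe set intensities of 12 arrays (3 lines, alone or with HS-5 stroma, 2 arrays per group) were used as deposited, on a linear scale. Per the submitters' processing notes the authors used MAS5 to make the intensity values, while the series design text names dChip and averaging of duplicates. Which of them made the deposited intensity values, and with which settings, is not given in the sources used here, and no raw scans were used. Of 54675 probe sets, 41097 had 1 gene symbol, 1801 several and 11777 none, and 62 controls and 1 probe set with a missing value were left out.

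Here the deposited values were taken to log2 after adding 5 (about the 20th percentile of all values). Probe sets above the median of their own array on at least 2 of 12 arrays were tested, with limma 3.58.1 in R 4.3.3. For the common effect, duplicates were averaged and the line entered as a block (2 residual degrees of freedom, prior 4.82). Effects within and between lines came from 1 fit of the 6 group means (6 residual, prior 2.21). Adjustment was Benjamini-Hochberg over 35664 probe sets. The fits were also run on simulated data, for which the rates of recovery and false calls are not given here.

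All member probe sets are named. Of the pathway genes, those past the common threshold (up to 6 in each direction) or else the 3 largest changes in that direction are named, beside the 3 genes most like each member in pattern and NR3C1, which bears on the MM.1R label. The members and lists were chosen with earlier results of these data known. An array gives no counts, and the number of arrays limits the precision. Promoter windows are RefSeq's, on GRCh38.p14.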

Additional observations from a re-analysis of the deposited data

Results flagged for a closer look

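The coculture effect differed between the 3 lines on 7 probe sets, by the F-test over the lines in limma with adjustment over all probe sets, where 32.8% of the whole table differed. For DKK1 (204602_at, adjusted p = 0.00918) the rise was 1.84 in MM.1S and 2.78 in MM.1R, with 0.68 in INA-6. For WNT5A the probe set 213425_at differed (adjusted p = 0.00177), with the smallest rise in MM.1S. For DKK3 the probe sets 214247_s_at (adjusted p = 0.00772), 202196_s_at (0.0107) and 221127_s_at (0.0407) had their largest rise in MM.1R, and the last of these calls was lost under 12 of 18 alternatives. For WNT5B (221029_s_at, adjusted p = 0.019) the falls were in the MM.1 lines, where the gene was above the array median. For FRZB (203697_at, adjusted p = 0.015) the differences were -1.12 in INA-6, -0.85 in MM.1S and 0.23 in MM.1R. Groups of 2 arrays are too small to test for single arrays that stand apart.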

How the results depend on the processing

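WNT5A 205990_s_at kept its common call under all 22 alternatives, and the calls of WNT5A, DKK1, DKK3 214247_s_at and WNT5B 221029_s_at within the MM.1 lines held under every alternative run on them. Of the 18 probe sets, the common count of 3 became 1 with no filter, 9 without INA-6, 8 with 12 arrays without averaging, and 7 with line and replicate block. For the fit without INA-6 and the one with the blocks, no share of all probe sets is given. In MM.1R the count of 10 became 6 with a filter in 6 arrays and 5 with 1 probe set a gene, and in that setting INA-6 had 3 in place of 5, the difference between lines 4 in place of 7, and INA-6 against the MM.1 lines alone 4 in place of 8. For MM.1R against MM.1S alone the count of 2 became 1 with a pseudocount of 1 or 16, with quantile normalization and with 1 probe set a gene, and 0 with centred arrays, no filter or the replicate block (limma). Without 1 array the counts ran from 2 to 3 (common), 5 to 9 (MM.1S), 7 to 10 (MM.1R), 4 to 8 (INA-6), 4 to 11 (difference), 7 to 11 (INA-6 against the MM.1 lines alone) and 0 to 2 (MM.1R against MM.1S alone). Same-numbered arrays deviated together within MM.1S (r = 0.385) and MM.1R (0.576), less within INA-6 (0.078), in the same direction between MM.1S and INA-6 (0.184 to 0.204), and in opposite directions between MM.1R and the other lines (-0.518 to -0.135), so the numbers were not taken as pairs. With the replicate block the counts within lines were 6 in MM.1S, 9 in MM.1R and 5 in INA-6.

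Over all probe sets the common count of 402 ran from 176 with no filter to 10024 without averaging, and MM.1R against MM.1S alone (2478) from 0 to 8265 without 1 array. The signs of values that had not passed turned for WNT10A 223709_s_at (common, -0.409 to 0.02 without 1 array, turning without the second INA-6 array alone) and FRZB 231273_x_at (-0.707 to 0.206, turning without the first INA-6 array alone, or at 0.007 without the second MM.1R array alone). The cause was not tested. Values near the array medians (SFRP1, most DKK3 probe sets) carry little signal over background, and the common fit has few degrees of freedom.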

Other observations

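NOTUM belonged to a small set of probe sets that were high on the INA-6 arrays of cells alone and low on every other array. With limits chosen after the values were seen, 1724 of the 35664 tested probe sets were above 1000 on both of these arrays, and 4 of those were below 100 on the other 10. The 4 were NOTUM, HHIP (a secreted inhibitor of Hedgehog signalling, 1556037_s_at), SERPINE2 (a secreted protease inhibitor, 227487_s_at) and LINC03024 (231501_at). Their lower INA-6 values were 4016, 1088, 1269 and 1210, and their highest values elsewhere were 17.7, 54.2, 96.5 and 1. This is a description of the probe sets and carries no test.

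WNT10A and FRZB, which separated the lines, each had genes with nearly the same pattern over the 12 arrays. For WNT10A (223709_s_at) these were GIMAP8, GGTLC1 and PLEK (Pearson r of log2 values 0.997, 0.996 and 0.993), and PLEK, a cytoskeletal adaptor of blood cells, read 399 to 562 in the MM.1 lines and 9.79 to 22.5 in INA-6. For FRZB (203697_at) they were RTP3, PTPRCAP and CREB3L2 (0.996, 0.995 and 0.995), and RTP3 read 1128 to 2669 in INA-6 and 7.54 to 16.5 in the MM.1 lines. For WNT5B (221029_s_at) they were ITGB8-AS1, BEST3 and PRKD3 (0.989, 0.988 and 0.986), of which BEST3 read 287 to 393 in the MM.1 lines alone and 73.8 to 105 with stroma. For WNT2B (206459_s_at) they were LINC00957, IRF2BP2 and CPAP (0.984, 0.981 and 0.98), and for SFRP1 (202037_s_at) ERC1, ZNF667 and IFI44L (0.935, 0.929 and 0.924).

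The glucocorticoid receptor gene NR3C1 was lower in MM.1R than in MM.1S on all 5 of its probe sets in cells kept alone, and 3 of them passed (limma adjusted p = 0.0151, 0.00927 and 0.0357), which bears on the labels of the sister lines. In this contrast 6.95% of all probe sets differed, 1.14% lower and 5.81% higher in MM.1R. Its calls over the whole table depended on single arrays, as given above, so these 3 calls are not firm.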
